A study of Mus musculus with 10 samples.

Results

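The 3 genes described here are Nos2, Il12b and Cd40, effector genes of classically activated (M1) macrophages: an enzyme, a cytokine subunit and a receptor. They were chosen as the array features whose only gene symbol in the platform table is 1 of these names, 3 of the 6795 named genes measured. Each was represented by 1 feature (Entrez identifiers 18126 for Nos2, 16160 for Il12b and 21939 for Cd40). Their ratios were measured on 10 two-colour cDNA arrays, on which total RNA of 2 mouse cell conditions competes for the same spots. The cells were peritoneal exudate cells (PEC), which the labels call peritoneal macrophages, and macrophages from tumours (TAM, tumour-associated macrophages), in both cases the cells that adhered in culture, from mice labelled C57/6N black and aged 8 weeks. Stimulated cells had received 100 ng/mL of lipopolysaccharide (LPS, a bacterial cell wall component sensed by Toll-like receptor 4) for 4 hours, and untreated cells had received none. TAM were harvested 3 weeks after a tumour was implanted; labels of the arrays that set TAM against PEC name the implantation for both populations, and labels of the LPS arrays of PEC name no tumour. Untreated TAM were set against untreated PEC on the 4 arrays named TAM-b, TAM-2R, TAM-3 as well as TAM-8, and LPS-treated TAM against LPS-treated PEC on 2 (TAM1 and TAM7). LPS-treated cells were set against untreated cells of the same kind on 2 arrays of PEC (PEC1 and PEC2) and 2 of TAM (TAM-trial and TAM-16). No source used here gives the kind of tumour, any pooling of mice or whether arrays came from separate animals or cultures, so p-values measure only the spread between arrays, which may be technical.

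Nos2 encodes the inducible nitric oxide synthase, which makes nitric oxide from arginine and serves macrophages in killing microbes and tumour cells. Il12b encodes the p40 subunit shared by interleukin 12 and interleukin 23, secreted cytokines that steer T and NK cells, the former towards interferon gamma production. Cd40 is the receptor through which macrophages, dendritic cells and B cells receive the CD40 ligand signal of T cells. All 3 are known targets of NF-kB and interferon-related transcription factors in LPS-stimulated macrophages, and a low output of interleukin 12 and nitric oxide is often described for macrophages of tumours.

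Promoter sequence was matched for 1 of the 3 genes, Il12b, which is why it alone is shown. The stretch is the 250 bases before the start of the gene on the + strand, chr11:44399813-44400062, from RefSeq on build GRCm38.p6, printed 5′ to 3′ with motif matches in capitals.
Il12b: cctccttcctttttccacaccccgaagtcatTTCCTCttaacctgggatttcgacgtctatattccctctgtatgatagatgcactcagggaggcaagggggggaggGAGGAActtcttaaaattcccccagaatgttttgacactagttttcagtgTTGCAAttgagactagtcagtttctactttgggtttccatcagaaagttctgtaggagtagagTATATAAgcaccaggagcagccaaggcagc
The motifs searched on both strands were the kB consensus (by name), TATANAA (a core promoter element), GAAANNGAA (interferon response type), GAGGAA (ETS type), TTGCAA (C/EBP type) and TGANTCA (AP-1 type). TATANAA matched at bases -30 to -24 before the start. GAGGAA matched on the opposite strand at -219 to -214 and on the gene's strand at -143 to -138, and TTGCAA, which reads the same on both strands, matched at -93 to -88. No match overlapped another, and the other motifs had none in this window. Among 32851 promoter windows of the same length, TATANAA was present in 10.4%, GAGGAA in 23.3%, TTGCAA in 5.34%, GAAANNGAA in 7.13%, TGANTCA in 6.75% and the kB consensus in 7.25%. A match describes letters in this window and is not a binding site measured here. Only full matches to each pattern were searched, not partial or variant forms. The lack of a match therefore does not show that a binding site, such as one for NF-kB, is absent.

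All values are the log ratios that the authors deposited; their log base is not stated and was taken as log2, so each fold given here rests on 1 unit being a factor of 2, with 0 as equality. They were read as channel 2 over channel 1, with TAM-2R and TAM1, whose channels are exchanged, turned; positive values then mean higher with LPS, or higher in TAM. The labels name no dyes, so this direction is likely and not settled; its basis is that, of 23 other measured genes of classical activation, 21 lay above 0 on PEC1 and 22 on PEC2, with medians of 1.65 and 1.70. The same genes had medians of 1.85 on TAM1 as deposited and -1.16 on TAM7, so the turned TAM1 has the sign of TAM7, whereas the 0.13 on TAM-2R as deposited lay near 0. Among them, Saa3 was at -7.62 on TAM-2R as turned, beside -5.15 on TAM-b, -7.00 on TAM-3 and -6.67 on TAM-8. Irf7 was at 1.83 on TAM-2R as turned, beside 1.94, 2.95 and 2.65 on the same arrays. Both keep the same sign across these arrays only with TAM-2R turned, but they were picked for their size, and other genes of the list were mixed. Array medians ran from -0.20 to 0.02 as deposited, arrays of 1 comparison correlated weakly over all features (r from 0.04 to 0.33), and 3 prints of the array were used (v1p1 for PEC1; v9p2 for TAM-8, TAM7 and TAM-trial; v3p6 for the rest). The position of a feature, taken as its number within a repeat of 96, accounted for 4.39% (TAM1) to 49.1% (TAM-b) of an array's variance, and 33.4% on TAM-trial. Features at the position of Il12b had a median of 1.465 on TAM-b, and those at the position of Nos2 had -0.795 on TAM-trial. The single-array values given here are not adjusted for position. Ratios carry no signal level, so no gene's abundance in a cell condition, and no filter on dim spots, could be given.

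Nos2 lay far above 0 on every array of LPS against untreated cells, in PEC and in TAM, but the size varied widely between the TAM arrays. In PEC, its log2 ratio was 3.37 on PEC1 and 3.77 on PEC2. In TAM, it was 1.91 on TAM-trial and 5.47 on TAM-16. The PEC arrays lay close together, whereas the TAM arrays lay far apart, 1 below and 1 above both PEC values. As folds, these were 10.4 and 13.7 in PEC and 3.75 and 44.3 in TAM. Among the 9596 features of an array, 77 lay higher on PEC1 and 80 on PEC2. On TAM-trial 268 lay higher, and on TAM-16 only 2. The mean was 3.57 ± 0.28 (SD, n = 2) in PEC, a fold of 11.9 with a 95% interval of 1.57 to 5.58 on the log2 scale and an adjusted p of 0.348. In TAM it was 3.69 ± 2.52 (SD, n = 2), a fold of 12.9, with an interval of 1.69 to 5.69 and an adjusted p of 0.828. Neither passed the threshold of 0.05 after adjustment over 8905 genes and features, although each interval, which is not adjusted, lay above 0. The spread of Nos2 about its means (residual SD 1.49) was wider than that of most genes, for which the median was 0.81.

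Cd40 lay above 0 on the same 4 LPS arrays, by less than Nos2 and with a smaller spread. It measured 2.12 on PEC1 and 3.44 on PEC2. It measured 1.36 on TAM-trial and 2.41 on TAM-16. All 4 values were positive, and the ranges of PEC and TAM overlapped, since TAM-16 lay above PEC1. The folds were 4.34 and 10.8 in PEC and 2.57 and 5.32 in TAM. The mean was 2.78 ± 0.93 (SD, n = 2) in PEC, a fold of 6.86 with a 95% interval of 1.72 to 3.83 and an adjusted p of 0.165. In TAM it was 1.89 ± 0.74 (SD, n = 2), a fold of 3.70 with an interval of 0.83 to 2.94 and an adjusted p of 0.828. Cd40 did not pass the threshold in either, and its residual SD of 0.57 was smaller than the median over all genes and features.

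Il12b did not follow the other pair, and its arrays fell on both sides of 0 in each LPS comparison. In PEC, it was at -1.17 on PEC1 and 0.07 on PEC2. In TAM, it was at 1.28 on TAM-trial and -0.91 on TAM-16. The signs thus differed between replicate arrays, and the array with the highest Nos2 ratio had a negative Il12b ratio. The mean was -0.55 ± 0.87 (SD, n = 2) in PEC, with a 95% interval of -2.04 to 0.94 and an adjusted p of 0.974. In TAM it was 0.18 ± 1.55 (SD, n = 2), with an interval of -1.30 to 1.67 and an adjusted p of 0.974. These intervals still allow changes of more than 1 log2 unit in either direction for TAM, so the arrays do not show that Il12b was unchanged. Its 1 feature was named only through the platform annotation, and whether that spot measures Il12b was not tested.

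**Figure D1:**
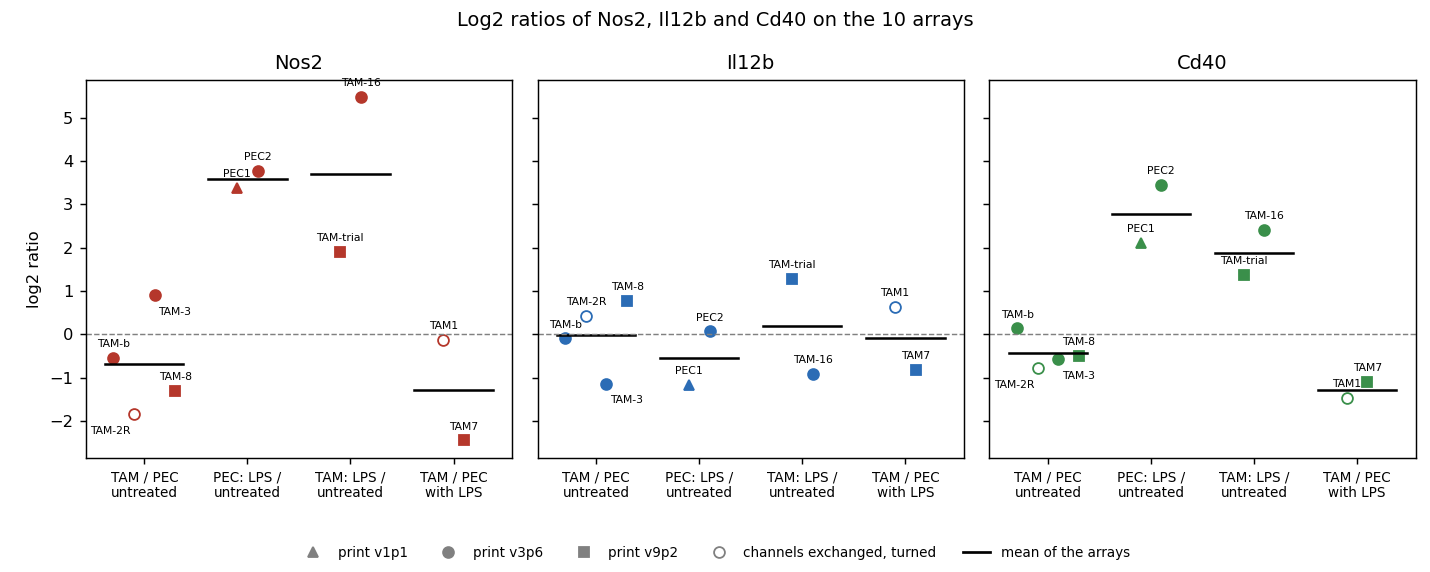
Log2 ratio (vertical axis) of Nos2, Il12b and Cd40 on each of the 10 arrays, grouped by comparison; marker shape gives the array print, open circles are the turned arrays and bars are means. Nos2 and Cd40 lie between 1.36 and 5.47 on the 4 LPS arrays, and Il12b lies between -1.17 and 1.28.

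Calls were rare in these comparisons. Of all genes and features, 0.0112% were called by limma for LPS in PEC (1 of 8905) and 0% for LPS in TAM, with 725 and 497 at an unadjusted p under 0.05. None of the 3 genes was called in any comparison. Above 0 on all 4 LPS arrays were 7.79% of genes and features (694), Nos2 and Cd40 among them and Il12b not. By the lowest of its 4 LPS values, Nos2 (1.91) had 7 genes or features ahead of it and Cd40 (1.36) had 14, whereas Il12b had 6535. The genes ahead of Nos2 included the chemokines Ccl5 (lowest value 3.88), Ccl4 (3.54) and Cxcl10 (2.05) and Sdc4, a heparan sulphate proteoglycan. Averaged over the 4 LPS arrays, Nos2 stood at 3.63 ± 1.46, Cd40 at 2.33 ± 0.86 and Il12b at -0.18 ± 1.11 (SD over the 4 arrays). These averages pool 2 arrays of PEC with 2 of TAM, so the 4 are not replicates of a condition.

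**Figure D2:**
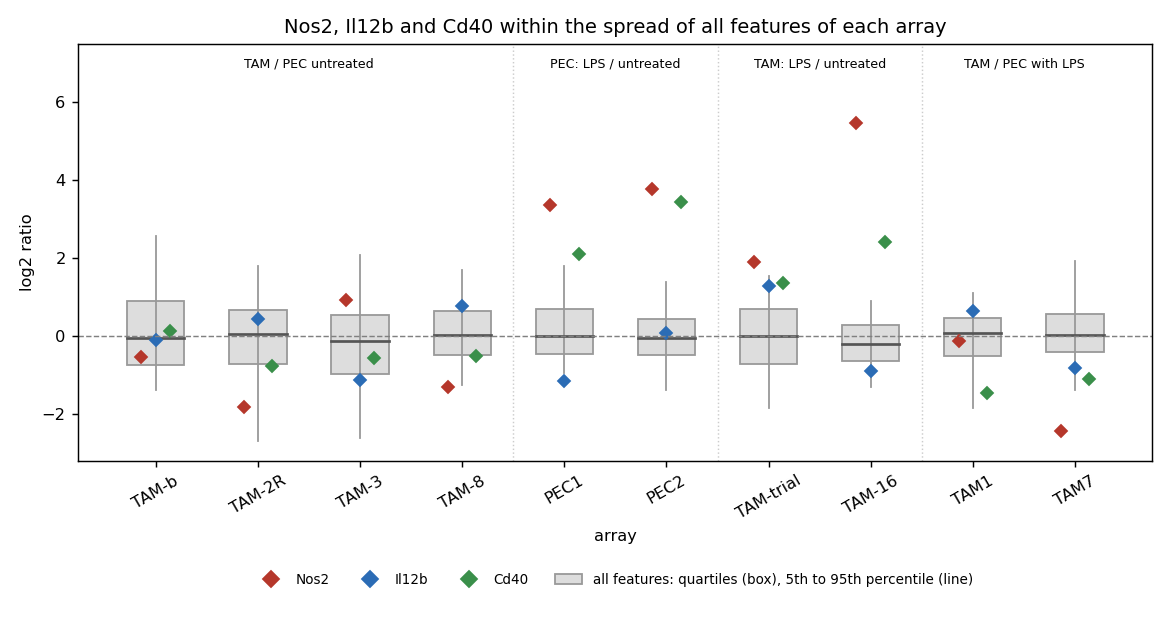
Log2 ratios (vertical axis) of the 3 genes against the spread of all 9596 features of each array (horizontal axis); boxes hold the quartiles and lines run from the 5th to the 95th percentile. Nos2 lies above the 95th percentile on all 4 LPS arrays, and Il12b lies above it on none.

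Differences between the genes within an array do not depend on where the array is centred, though they compare ratios of 2 spots and not abundances. The Nos2 ratio exceeded the Il12b ratio by 3.71 and 4.54 in PEC. In TAM it did so by 0.63 and 6.38. The excess was thus steady in PEC and very uneven in TAM. Il12b stood below Cd40 by nearly the same amount on both PEC arrays, with a difference of -3.33 ± 0.06 (SD, n = 2), and by -3.32 and -0.08 on the TAM arrays. Nos2 exceeded Cd40 on all 4 arrays, by 0.80 ± 0.65 in PEC and 1.80 ± 1.78 in TAM (SD, n = 2 each).

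Whether TAM answered LPS differently from PEC was tested as the difference of the LPS ratios, TAM minus PEC. Under this test 0% of genes and features were called by limma, with 612 at an unadjusted p under 0.05. For Nos2 the difference was 0.11 with a standard error of 1.27 and a 95% interval of -2.72 to 2.94. For Cd40 it was -0.89 (standard error 0.67, interval -2.38 to 0.60), but -1.55 without PEC1, -1.42 without TAM-16, -0.37 without TAM-trial and -0.23 without PEC2. For Il12b it was 0.73 (standard error 0.94, interval -1.37 to 2.84). Every interval spans 0 and several log2 units, so neither a like nor an unlike response is shown; adjusted p-values were 0.998 for Nos2, 0.914 for Cd40 and 0.998 for Il12b. The difference for Nos2 was -1.67 without TAM-16 and -0.0870 without PEC1, and 1.89 without TAM-trial and 0.31 without PEC2. For Il12b it ran from -0.36 to 1.83 with an array left out. Print went with array here: within print v3p6, which holds 1 array of each, TAM minus PEC was 1.69 for Nos2, -1.03 for Cd40 and -0.98 for Il12b, the last opposite in sign to the pooled value.

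When LPS-treated TAM and PEC were set against each other directly, Cd40 and Nos2 lay below 0 on both arrays and Il12b on 1. Cd40 was at -1.47 on TAM1 and -1.10 on TAM7. Nos2 was at -0.13 on TAM1 and -2.45 on TAM7. The Cd40 values lay close together, whereas for Nos2 almost all of the mean came from TAM7, on which TAM held 5.45-fold less. Il12b was at 0.64 on TAM1 and -0.82 on TAM7. Cd40 averaged -1.28 ± 0.26 (SD, n = 2), 2.43-fold lower in TAM, with a 95% interval of -2.34 to -0.23 and an adjusted p of 0.447. Nos2 averaged -1.29 ± 1.64 (SD, n = 2), 2.44-fold lower, with an interval of -3.29 to 0.72 and an adjusted p of 0.837. Il12b averaged -0.09 ± 1.03 (SD, n = 2), with an interval of -1.58 to 1.39 and an adjusted p of 1. None passed the threshold, against 0.0674% of genes and features called (6 of 8905), and lying below 0 on both arrays was common, at 28.2% of them. Above 0 on all 4 LPS arrays and below 0 on both of these were 2.72%, Nos2 and Cd40 among them. The Cd40 mean depends on the channel order of TAM1, since it was 0.18 if TAM1 is read as not exchanged.

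Between untreated TAM and PEC each of the 3 genes had arrays on both sides of 0, in a comparison with 0.460% of genes and features called (41 of 8905). Nos2 was at -0.54 on TAM-b, -1.83 on TAM-2R, 0.92 on TAM-3 and -1.30 on TAM-8. Cd40 was at 0.14, -0.78, -0.57 and -0.51 on the same arrays, and Il12b at -0.09, 0.44, -1.13 and 0.77. Nos2 and Cd40 were each below 0 on 3 of the 4 arrays, but not the same 3, and Il12b was below 0 on 2. The means were -0.69 ± 1.19 for Nos2 (95% interval -2.10 to 0.73, adjusted p 0.623), -0.43 ± 0.40 for Cd40 (-1.17 to 0.32, adjusted p 0.565) and -0.0043 ± 0.83 for Il12b (-1.06 to 1.05, adjusted p 0.998), with SD over 4 arrays. Each of these intervals spans 0 and allows a change of more than 1 log2 unit, so neither a difference nor its absence is shown. On the array TAM-3, Nos2 and Il12b lay on opposite sides of 0, 0.92 against -1.13. If TAM-2R is read as not exchanged, the Nos2 mean became 0.23 and the Cd40 mean -0.0378.

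The 4 comparisons form a loop, so the TAM to PEC ratio under LPS can also be reached by adding the untreated ratio and the TAM response and subtracting the PEC response. For Cd40 this path gave -1.32 (95% interval -2.99 to 0.35), next to -1.28 measured directly, a gap of 0.04 with a standard error of 0.88. For Nos2 the path gave -0.58 against -1.29, a gap of -0.71 (standard error 1.68). For Il12b it gave 0.73 against -0.09, a gap of -0.82 (standard error 1.25). The median absolute gap over all genes and features was 0.76, so Nos2 and Il12b closed the loop about as well as a typical gene, and 2.73% of genes and features had a smaller gap than Cd40. The labels do not say whether arrays of the loop share RNA, and a term for channel order in a fit of the loop was 0.03 for Nos2, -0.41 for Il12b and 0.21 for Cd40, with standard errors of 0.56, 0.40 and 0.29.

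**Figure D3:**
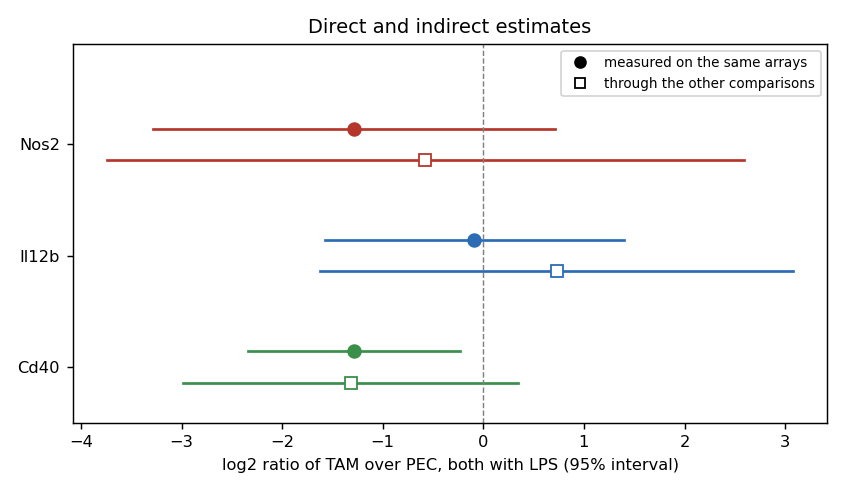
Log2 ratio of LPS-treated TAM over LPS-treated PEC (horizontal axis) for the 3 genes, measured directly (filled circles) and by the path through untreated cells (open squares), with 95% intervals from the fit. The 2 estimates for Cd40 are -1.28 and -1.32, and those for Il12b lie on either side of 0.

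Around Nos2, the genes of nitric oxide and arginine metabolism did not lie high together. Of 29 genes listed 17 were measured, Nos2 included, and none of the other 16 was called in any comparison; with LPS their median was 0.20 in PEC (10 above 0) and 0.05 in TAM (10 above 0), beside medians of -0.04 and -0.13 over all genes and features. On single arrays the list's median was 0.0960 on PEC1, 0.0025 on PEC2, 0.02 on TAM-trial and 0.28 on TAM-16. Gch1, which makes the first step towards the tetrahydrobiopterin cofactor of nitric oxide synthase, was at 2.32 on PEC1, 1.74 on PEC2, 0.22 on TAM-trial and 0.57 on TAM-16. In LPS-treated TAM against PEC it was at -2.84 on TAM1 and -1.83 on TAM7, a mean of -2.33 ± 0.72 (SD, n = 2) with an adjusted p of 0.0862. Gch1 thus lay low in TAM on both arrays, as Cd40 did, without passing the threshold. Slc3a2, the heavy chain of the amino acid transporters that pair with it, averaged 1.66 ± 0.38 with LPS in PEC and -1.57 ± 1.13 in LPS-treated TAM against PEC (SD, n = 2 each). Slc7a7, a light chain of cationic amino acid exchange, averaged 1.16 ± 0.24 (SD, n = 4) in untreated TAM against PEC, with an adjusted p of 0.210. It lay above 0 on all 4 arrays, on TAM-2R only as turned. Gucy1b1, a subunit of the guanylate cyclase that senses nitric oxide, was among the lowest of the list, at -1.07 ± 0.37 with LPS in PEC and -1.85 ± 0.02 in TAM (SD, n = 2 each), and was not called.

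Around Il12b, 11 other measured genes of the interleukin 12 family, its receptors and signalling had medians of 0.22 with LPS in PEC and 0.42 in TAM (8 above 0 and 3 below in each), with 0 called in each. On single arrays the median was 0.45 on PEC1, -0.07 on PEC2, 0.21 on TAM-trial and 0.45 on TAM-16. Ebi3, the subunit that pairs with p28 in IL-27, was at 0.79, 0.85, 1.49 and 1.02 on the 4 arrays of untreated TAM against PEC, a mean of 1.04 ± 0.32 (SD, n = 4, adjusted p 0.168). Il27, that partner, was at 0.81 and 1.74 with LPS in TAM, and at -0.33 and 1.17 in PEC. Ebi3 therefore lay above 0 on all 4 untreated arrays, on TAM-2R only as turned, while Il12b, in the same family, lay on both sides. Ebi3 is named as the highest of this list there, and its difference from Il12b was not tested. Stat3, a transducer of interleukin 23 and many other cytokines, averaged 1.43 ± 0.86 with LPS in PEC and 1.75 ± 0.46 in TAM (SD, n = 2 each), and was not called. Stat4, which carries the interleukin 12 signal in T and NK cells, was the lowest of the list with LPS in PEC, at -1.24 ± 0.26 (SD, n = 2), and was not called.

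Around Cd40, 9 other measured genes of its signalling had medians near 0 with LPS, 0.05 in PEC and 0.26 in TAM, and 7 of 9 lay below 0 in LPS-treated TAM against PEC (median -0.37, beside 0.08 over all). The list's median was -0.56 on TAM1 and -0.15 on TAM7, and with LPS it was 0.37 on PEC1, 0.21 on PEC2, 0.12 on TAM-trial and 0.43 on TAM-16. Traf1, an adaptor of CD40 and of other receptors of the tumour necrosis factor family, was the member of the list nearest to Cd40. It was at 1.83 and 2.19 with LPS in PEC, 1.13 and 1.42 with LPS in TAM, and -0.73 and -1.68 in LPS-treated TAM against PEC. Among 13 measured genes of costimulation and adhesion to T cells the median was 0.82 with LPS in PEC (10 above 0) and 0.26 in TAM (8 above 0). Itgb2, the beta chain of leukocyte integrins, was the lowest of these in untreated TAM against PEC, at -2.20 ± 1.92 (SD, n = 4), without being called. Icam1, an adhesion molecule bound by T cell integrins, averaged 2.05 with LPS in PEC and 1.46 ± 0.12 (SD, n = 2) in TAM. Cd80, a costimulatory ligand that acts beside CD40, averaged -0.23 ± 0.63 (SD, n = 2) with LPS in PEC. Cd86, of the same list, went the other way, at 1.16 on PEC1 and 1.30 on PEC2.

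Other genes of classical activation gave the direction in which the LPS arrays of PEC were read, so their 21 of 23 above 0 there (median 1.58) is a description and no result. Of these 23, 18 lay above 0 with LPS in TAM (median 0.79; 0.82 on TAM-trial and 1.30 on TAM-16), and 19 lay below 0 in LPS-treated TAM against PEC (median -1.43); 0 were called in these 3. Both counts rest on the direction read from these genes on PEC1 and PEC2, and the second also on the turning of TAM1. These genes were also used to compare the turned TAM1 with TAM7, so that count is a description too. On TAM7, which was not turned, 6 of the 23 lay above 0. For 18 of the 23 the LPS ratio was lower in TAM than in PEC, as it was for 4922 of all 8905 genes and features. The median difference was -0.97 for the 23, against -0.11 over all genes and features. The differences of Cd40 and Nos2 are too imprecise to place against that median. The cytokine Tnf was at 2.21 and 4.95 with LPS in PEC, 1.45 and 2.24 in TAM, and -3.79 and -2.16 in LPS-treated TAM against PEC. Ccl3 and Il1b, a chemokine and the interleukin 1 beta gene, had the lowest means there, -4.21 ± 0.47 and -3.68 ± 0.82 (SD, n = 2), with adjusted p of 0.242 and 0.363. In untreated TAM against PEC, 2 of the 23 passed the threshold: Irf7, a transcription factor of the interferon response, was higher in TAM (2.34 ± 0.55, SD, n = 4, adjusted p 0.0412), and the acute phase gene Saa3 was lower (-6.61 ± 1.05, SD, n = 4, adjusted p 4.2e-04).

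**Figure D4:**
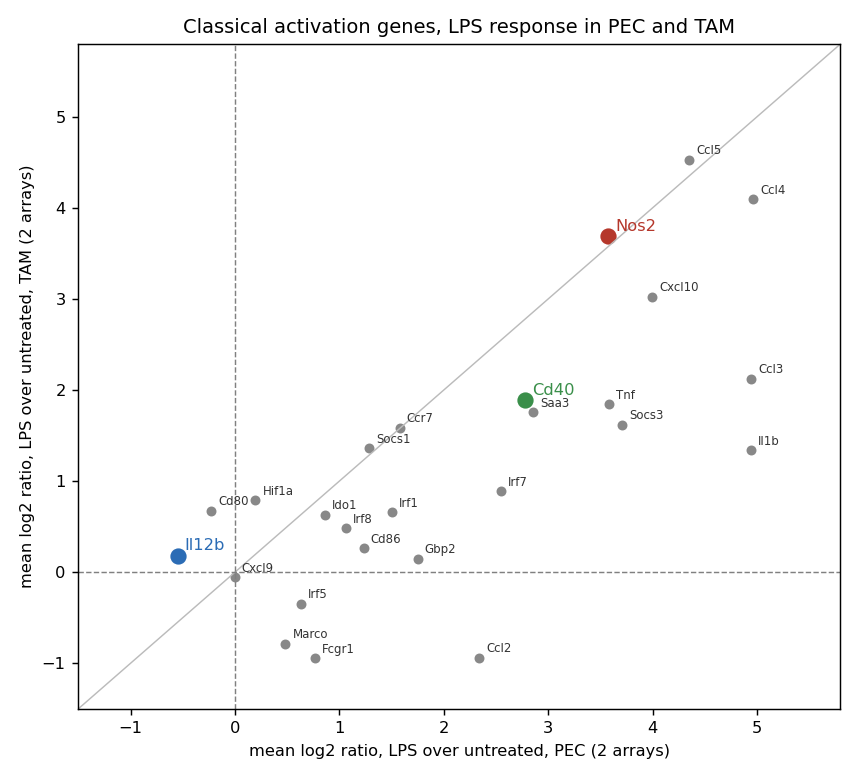
Mean log2 ratio with LPS in TAM (vertical axis) against that in PEC (horizontal axis) for the measured genes of classical activation, with Nos2, Il12b and Cd40 in colour and the line of equal response. Of the 23 other genes 18 lie below the line, Cd40 lies below it and Nos2 (3.57 and 3.69) lies close to it.

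Of 17 measured genes that act in Toll-like receptor or NF-kB signalling, 16 lay above 0 with LPS in PEC (median 0.96) and 9 in TAM (median 0.09), with 0 called. Over all genes and features, 48.1% lay above 0 with LPS in PEC and 43.2% in TAM. The TAM median rested on unlike arrays: it was -0.20 on TAM-trial (8 of 17 above 0) and 0.52 on TAM-16 (12 of 17). Nfkbia, the NF-kB inhibitor that NF-kB itself induces, averaged 3.01 ± 0.98 (SD, n = 2) in PEC. Of 16 measured transcription factors known at such promoters, 13 lay above 0 with LPS in PEC (median 0.36) and 9 in TAM (median 0.40; -0.04 on TAM-trial and 0.37 on TAM-16). Junb, an AP-1 subunit, averaged 2.04 ± 0.08 with LPS in PEC and -1.87 ± 0.77 in LPS-treated TAM against PEC (SD, n = 2 each). Some genes are in more than 1 list, so these counts are not independent of each other.

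By the cosine of the 10 log2 ratios, a likeness that does not change when an array is turned, Nos2 and Cd40 were among each other's closest genes and Il12b was remote from both. Cd40 had a cosine of 0.893 with Nos2, which ranked 2 of 6794 genes for Nos2 and 12 for Cd40. Il12b had -0.318 with Nos2 (rank 5141) and -0.201 with Cd40 (rank 4533). The 5 other genes most like Nos2 were Sdc4 (0.921), the NF-kB restraining gene Tnip1 (0.891), Ccl4 (0.882), Traf1 (0.873) and Stat3 (0.863). Those most like Cd40 were Sdc4 (0.974), Ccl4 (0.934), Tnip1 (0.928), Tnf (0.923) and Daxx (0.920), so 3 of the 5 were the same genes. Those most like Il12b were Myo5c (0.913), Zfp110 (0.910), S100a5 (0.902), Ttll1 (0.878) and Otud4 (0.876). The means of these Il12b-like genes stayed between -0.66 and 0.18 in every comparison, whereas Sdc4 averaged 3.63 with LPS in PEC, 2.69 in TAM and -1.41 in LPS-treated TAM against PEC. The cosine is a description over 10 arrays that share 4 cell conditions.

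Markers of macrophages also varied between arrays. Cells of other kinds may have differed in share, since in bulk RNA fewer cells of a type and less RNA per cell cannot be told apart. Of 5 measured macrophage markers, 0 lay above 0 in LPS-treated TAM against PEC (median -1.72), with Lyz2 at -2.71 ± 0.99 and Cd68 at -3.50 ± 0.25 (SD, n = 2); none was called. On these arrays the markers' median was -1.49 on TAM1 and -2.01 on TAM7, beside Cd40 at -1.47 and -1.10. Nos2 was at -0.13 and -2.45 there, and Il12b at 0.64 and -0.82. On the LPS arrays of TAM the markers' median was -2.50 on TAM-trial and 0.40 on TAM-16. Nos2 (1.91 and 5.47) and Cd40 (1.36 and 2.41) were also lower on TAM-trial, whereas Il12b (1.28 and -0.91) was higher there. The markers' median was 0.53 on PEC1 and 1.24 on PEC2. Nos2 (3.37 and 3.77), Cd40 (2.12 and 3.44) and Il12b (-1.17 and 0.07) were also lower on PEC1. On the untreated arrays the markers' median was -2.34 on TAM-8, -1.25 on TAM-b, -0.32 on TAM-3 and -0.28 on TAM-2R. Of these, TAM-2R had the highest marker median and the lowest Nos2 (-1.83) and Cd40 (-0.78). Other cells that carry Cd40 or Il12b had medians nearer 0 in LPS-treated TAM against PEC: -0.16 for 5 dendritic cell markers and -0.03 for 4 B cell markers. The dendritic cell markers ran there from Ccl22 at -0.72 to Cd209a at 0.64. With LPS in PEC, Ccr7 and Ccl22 of this list averaged 1.58 and 1.26, and Fscn1 and Ccl17 -0.34 and -0.70. Markers within a list disagreed: B cell markers ran from Cd79a at -2.95 to Ms4a1 at 0.43, and T and NK cell markers from Cd3d at -2.58 to Cd3g at 0.90. With LPS in PEC, Cd79a averaged 3.83 ± 2.18 and Cd3d 5.22 ± 0.13 (SD, n = 2 each), whereas Cd79b averaged -0.13 and Cd3g -0.97. Whether the features of Cd79a and Cd3d follow the share of B or T cells was not tested. Medians in LPS-treated TAM against PEC were 0.62 for 5 T and NK cell markers, 0.76 for 6 of neutrophils, 0.48 for 6 of fibroblasts and 0.15 for 4 of endothelial cells, with 0 called in each. In untreated TAM against PEC the medians were -0.93 for macrophages, -0.42 for dendritic cells, -0.21 for B cells, -0.22 for T and NK cells, 0.98 for neutrophils, 0.86 for fibroblasts and 0.13 for endothelial cells. The macrophage markers spread there from Cd68 at -1.74 ± 1.41 to Fcgr1 at 1.10 ± 0.52 (SD, n = 4). The part of any of these in the values of Nos2, Il12b and Cd40 was not tested.

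None of the 3 genes was called under any of 12 other processing choices or with any of the 10 arrays left out. By construction only 7 of the 12 choices and 2 of the 10 omissions could alter an LPS mean, and under these the LPS means of Nos2 and Cd40 stayed above 0. For LPS in PEC, the Nos2 mean ran from 3.28 to 3.95 over the choices and the Cd40 mean from 2.42 to 3.44; with PEC2 left out they were 3.37 and 2.12. For LPS in TAM, they ran from 3.46 to 5.47 and from 1.67 to 2.41; with TAM-16 left out they were 1.91 and 1.36. Il12b did not keep its sign: it changed under 3 of the 12 choices for LPS in PEC and under 2 for LPS in TAM. The lowest adjusted p of any of these results was 0.0520, for Cd40 with LPS in PEC without PEC1, and without PEC2 it was 0.746.

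**Figure D5:**
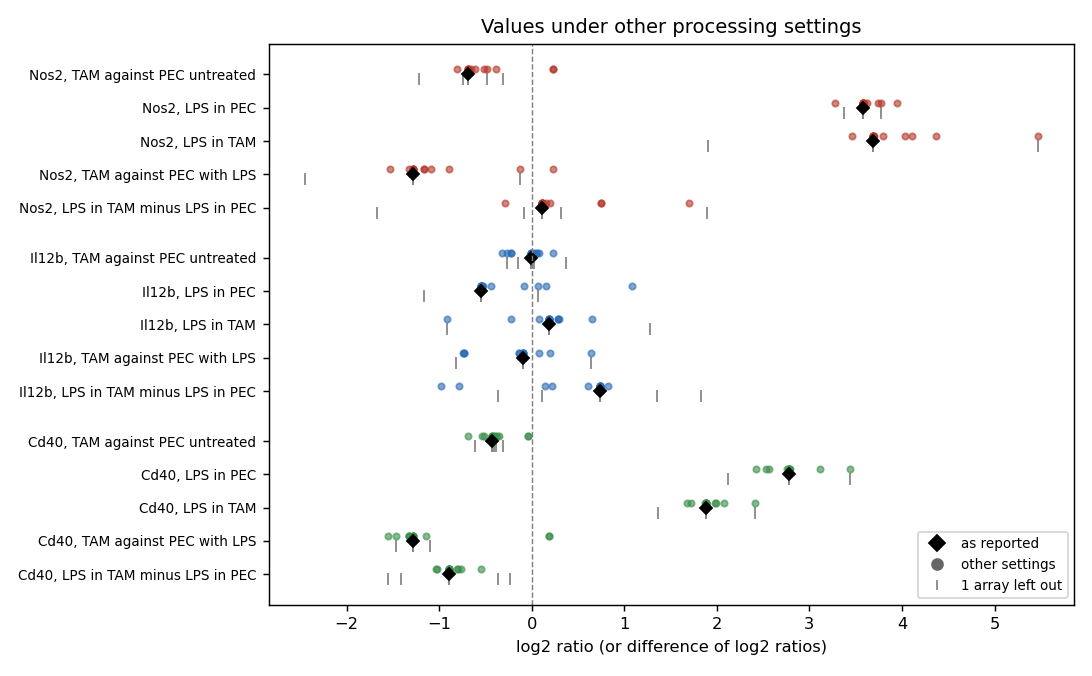
Mean log2 ratio (horizontal axis) of each gene in each comparison as reported (diamonds), under the 12 other choices (circles) and with each array left out (ticks). The LPS values of Nos2 and Cd40 stay above 0 throughout, and those of Il12b lie on both sides of 0.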

How the data were processed

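Two-colour cDNA array values were used for all 10 arrays. For every feature of an array the authors deposited a single log ratio, treated here as log2. How images were analysed, background corrected and values normalized, which log base was used and which dyes is not given in the sources used here. Ratios were taken as channel 2 over channel 1; TAM-2R and TAM1, whose channels are exchanged per the labels, were multiplied by -1. Features were named from the platform annotation (7486 of 9596 with 1 symbol, 483 with several and 1627 with none, the latter kept unnamed), and features of 1 gene were averaged, giving 8905 genes and features. All were fitted with limma 3.58.1 (lmFit, eBayes; R 4.3.3) as 4 comparison means over 10 arrays, with 6 residual and 3.84 prior degrees of freedom, so comparisons of 2 arrays borrow the spread of the others. P-values are two-sided and adjusted by Benjamini-Hochberg over 8905, threshold 0.05; intervals are 95% and unadjusted. The number of arrays limits the precision. SDs are over a comparison's arrays.

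The members and the gene lists were chosen with earlier results of these data known, and the motifs after the Il12b sequence was seen. Genes eligible for naming were the 3 genes, in each list and comparison the called genes and the 2 highest and 2 lowest, the 5 nearest genes by cosine, and the highest and lowest cell markers in untreated cells. The text names only some of those from the lists and a few others, a choice made after their values were seen. Alternatives were the coding of the exchanged arrays, terms for channel order and print, centring, scaling, feature position, averaging of features, the arrays in the fit, and leaving out each array. The code was tested on simulated data.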

Additional observations from a re-analysis of the deposited data

How the results depend on the processing

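None of the 3 genes was called under any alternative, but sizes, signs and counts of called genes changed. The cause of these changes was not tested. Leaving out an array can change the mean, the spread and the degrees of freedom together. With an array left out, Nos2 with LPS in TAM ran from 1.91 to 5.47 and the TAM minus PEC difference of Cd40 from -1.55 to -0.23, and Cd40 in untreated TAM against PEC went from -0.43 to -0.0378 with TAM-2R not turned. With neither exchanged array turned, Nos2 in untreated TAM against PEC was 0.23 and Cd40 in LPS-treated TAM against PEC was 0.18, the former also with TAM-2R alone and the latter with TAM1 alone not turned. Il12b in untreated TAM against PEC, at -0.0043, became 0.23 with a channel-order term, 0.0535 in the loop fit with that term, 0.0479 with 1 such term per print, 0.0230 after centring, 0.0742 after scaling, and -0.26 to 0.37 with an array left out. With LPS in PEC, Il12b was 0.15 in the loop fit, 1.08 with terms per print, 0.0670 within print v3p6, and -1.17 to 0.0670 with an array left out. With LPS in TAM it was -0.23 after position adjustment, -0.91 within v3p6, and -0.91 to 1.28 with an array left out. In LPS-treated TAM against PEC it was 0.20 in the loop fit, 0.0785 after position adjustment, 0.64 within v3p6, and -0.82 to 0.64 with an array left out, and Nos2 was 0.23 with terms per print. For TAM minus PEC responses, Nos2 was -0.28 in the loop fit and -1.67 to 1.89 with an array left out; Il12b was -0.79 with terms per print, -0.98 within v3p6 and -0.36 to 1.83 with an array left out.

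Calls in untreated TAM against PEC, 41, became 0 with either or both exchanged arrays not turned and within v3p6, 17 with a channel-order term, 26 in the loop fit, 9 with terms per print, 12 after scaling, 2 from its own arrays, and 6 (without TAM-8) to 24 with an array left out. The 1 call for LPS in PEC became 2 with both exchanged arrays, or TAM-2R alone, not turned, 0 in the loop fit, with terms per print, from own arrays and within v3p6, 3 after scaling, 5 after position adjustment, and 1 to 85 with an array left out (85 without PEC1 and 48 without PEC2). The 0 calls for LPS in TAM became 1 after scaling and 0 to 3 with an array left out (3 without TAM-16). The 6 calls in LPS-treated TAM against PEC became 0 with either or both exchanged arrays not turned, with terms per print, from own arrays and within v3p6, 131 in the loop fit, 81 after scaling, 16 after position adjustment, and 3 to 11 with an array left out (11 without TAM-2R). Calls for the difference of responses, 0, became 0 to 47 with an array left out (47 without PEC1, 19 without PEC2 and 1 without TAM-16).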

Other observations

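Beside the chemokines, the genes with high ratios on all 4 LPS arrays included some outside inflammation, named here after their values were seen. Alas2, the erythroid enzyme of the first step of haem synthesis, was at 2.78 on PEC1, 2.96 on PEC2, 3.04 on TAM-trial and 2.47 on TAM-16. Hba-x, an embryonic alpha-like globin gene, was at 1.82, 2.20, 2.22 and 2.65 on the same arrays, and Tbx6, a mesodermal transcription factor, at 2.89, 3.65, 1.80 and 4.02. The array feature behind a symbol was named only through the platform annotation, and whether these spots measure the named genes was not tested.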
